A study of Mus musculus with 18 samples.

Results

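Mouse embryonic stem (ES) cells that lack the chromatin remodeller Snf2h and were given back a mutant Snf2h were compared with wild-type ES cells by RNA sequencing. The comparison rests on 5 libraries. These are 2 libraries of mutant add-back cells (replicates 1 and 3) and 3 of wild-type cells (replicates 6 to 8), of 18 libraries in the whole series. They were taken by their column names. The libraries of Snf2h ko cells (replicates 3 to 5) and of ko cells given wild-type Snf2h, called wild-type add-back here (replicates 1 to 3), were set beside them to show where the mutant add-back cells differ from cells without Snf2h and from the functional add-back. All cells are of strain 129S6/SvEvTac and were kept in serum with leukaemia inhibitory factor (LIF). The mutant add-back and wild-type add-back cells both carry the Snf2h knockout. The labels call the mutant an ATPase mutant and do not name the changed residue, the promoter of either add-back or the number of clones per line. The Snf2h ko and mutant add-back lines were grown on feeder layers of mouse embryonic fibroblasts in the passages just after thawing, and the other lines on gelatin. Feeder use is therefore shared by the ko and the mutant add-back and cannot be told apart from their genotype.

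The gene Smarca5 encodes Snf2h, the motor subunit of most mammalian ISWI complexes, which use ATP to slide nucleosomes and to space them evenly. Its paralogue Snf2l, encoded by Smarca1, drives a smaller group of such complexes. In ES cells ISWI is known for keeping regular nucleosome arrays next to the binding sites of the insulator protein CTCF. A mutant of the ATPase domain separates the presence of the protein from its remodelling activity.

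The deposited values are raw read counts per gene. The 11 libraries hold between 15.3 and 18.99 M counts each, and levels are given as counts per M counts (CPM) after TMM scaling. Of 24116 genes in the table, 14488 were tested in a joint edgeR quasi-likelihood fit with Benjamini-Hochberg adjustment over all of them. A gene is said to have risen or fallen, or to be called, where its adjusted p was under 0.05, and every adjusted p below comes from that fit. Fold changes are given as log2 values with their standard error (SE). The first principal component held 70.6% of the variance and put the mutant add-back and ko libraries on one side, and the wild-type add-back and wild-type libraries on the other. The 2 mutant add-back libraries differed from each other by a chi-square of 13.2 per gene, where sampling noise alone gives about 1, against 1.45 to 2.09 for pairs of wild-type libraries, more than any other pair within a group. Of the genes tested, 194 stood at least 2-fold apart between them, with 78 higher in replicate 1 and 116 higher in replicate 3. The 7 libraries outside the fit, ko replicates 1 and 2 and wild-type replicates 1 to 5, differ from the later ones of the same genotype for many genes. Their levels, on 18-library scaling, are given beside many of the results they change, and directions and folds hold for the libraries of the fit. The labels do not say whether replicates were separate cultures, so p-values measure the spread between these libraries, which may be partly technical.

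Most of the transcriptome of mutant add-back cells differed from wild type. Of the 14488 genes, 9655 were called (66.6%), 4847 of them higher (33.5%) and 4808 lower (33.2%), with a median log2 fold change over all genes of 0.00056. At least 2-fold differences were fewer, with 1359 genes higher (9.38%) and 1136 lower (7.84%). In 74.7% of all genes tested the mutant add-back and wild-type libraries did not overlap, so lack of overlap in a single gene is common here. Against the ko, by contrast, 3683 genes were called (25.4%), 1868 higher (12.9%) and 1815 lower (12.5%), and 269 of them by at least 2-fold (1.86%), with 156 higher (1.08%) and 113 lower (0.78%). Against the wild-type add-back, 9744 genes were called (67.3%), 4898 higher (33.8%) and 4846 lower (33.4%), and 2534 by at least 2-fold (17.5%), with 1360 higher (9.39%) and 1174 lower (8.1%). The libraries did not overlap for 48.3% of genes against the ko and for 73.1% against the wild-type add-back. The counts against the ko moved with single libraries: 960 were higher and 1025 lower without mutant add-back replicate 1, 3033 higher and 2844 lower without replicate 3, 1036 higher without ko replicate 3 and 1223 higher without ko replicate 4. These 3 comparisons share the mutant add-back libraries.

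**Figure D1:**
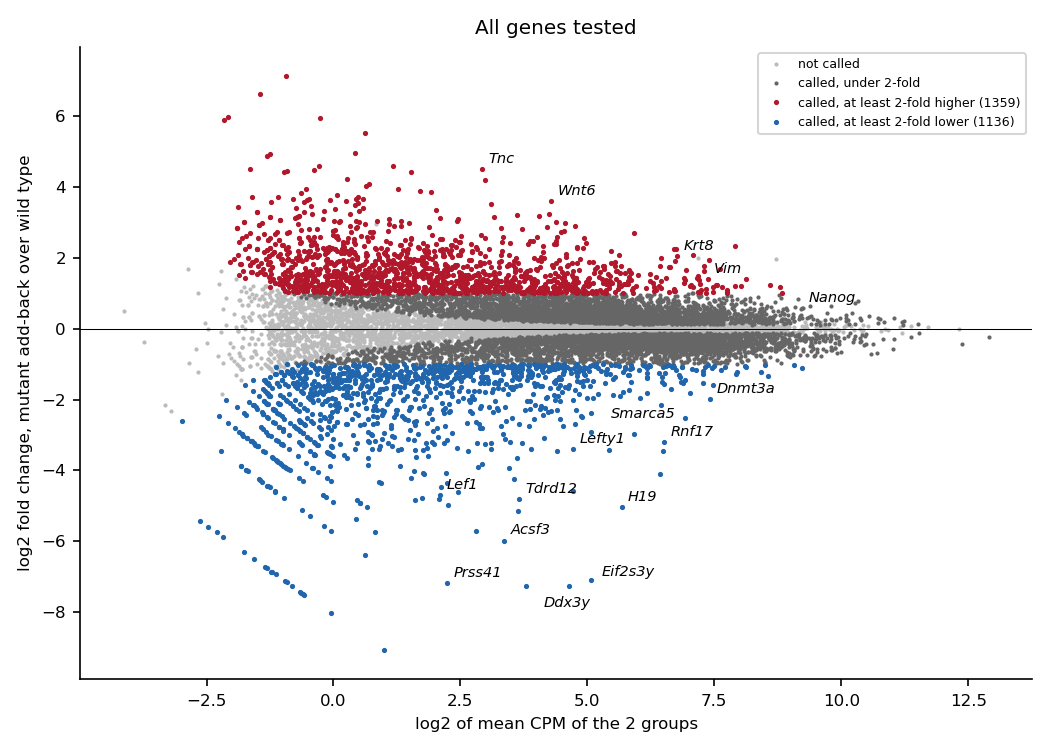
Each point is 1 of the genes tested, with the log2 of its mean CPM over mutant add-back and wild-type libraries on the horizontal axis and its log2 fold change, mutant add-back over wild type, on the vertical axis. Red points are the 1359 genes called at least 2-fold higher and blue points the 1136 called at least 2-fold lower; Ddx3y, Prss41, Eif2s3y and Acsf3 lie farthest below 0 among the genes labelled in the plot.

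Smarca5 RNA (chr8:80699943-80739459 on GRCm38) was present in mutant add-back cells but well below wild type. Its level was 48.1 and 68.3 CPM in the mutant add-back libraries, 10.1, 9.64 and 8.67 CPM in the ko, 83.4, 83.8 and 90.005 CPM in the wild-type add-back and 214, 199.7 and 195 CPM in wild type. The 4 groups did not overlap, and the mutant add-back stood between the ko and the wild-type add-back. Relative to wild type the log2 fold change was -1.80 ± 0.11 (adjusted p = 1.2e-09), relative to the ko 2.62 ± 0.13 (adjusted p = 2.2e-09) and relative to the wild-type add-back -0.56 ± 0.11 (adjusted p = 0.00027). The mutant add-back therefore differs from the wild-type add-back in the amount of Smarca5 RNA as well as in the protein's form, and the effects of amount and form cannot be told apart in the comparisons below. The pseudogene Smarca5-ps, whose counts can hold reads of Smarca5, followed the same order with 18.2 and 23.7 CPM in the mutant add-back, 3.88, 4.42 and 4.34 CPM in the ko, 33.8, 35.2 and 38.3 CPM in the wild-type add-back and 63.3, 57.2 and 60.02 CPM in wild type. Smarca1 also fell, with 14.7 and 15.01 CPM in the mutant add-back against 23.4, 23.3 and 20.9 CPM in wild type (log2 fold change -0.60 ± 0.09, adjusted p = 8.3e-06), and it was lower than in the ko (log2 fold change -0.40, adjusted p = 0.0033).

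Genes of the proteins that work with Snf2h fell by small amounts. Of 15 ISWI genes tested, 13 were called lower than wild type and 0 higher, against 33.2% lower over all genes, and their median log2 fold change was -0.35. Baz1a, which encodes the ACF1 partner of Snf2h, fell most after Smarca5 itself, with 31.1 and 35.7 CPM in mutant add-back cells against 71.5, 74.6 and 72.6 CPM in wild type (log2 fold change -1.13 ± 0.07, adjusted p = 9.1e-11). The large NURF subunit Bptf stood at 174 and 238 CPM against 319, 303 and 291 CPM, and the gap between the 2 mutant add-back libraries was wide (-0.56 ± 0.12, adjusted p = 0.0018). Cecr2, the partner of Snf2l in a complex named after it, fell by 0.92 on the log2 scale. Chrac1 and Pole3, the small histone-fold subunits of CHRAC, were not called, each with a log2 fold change of 0.06. Against the ko, 3 of the 15 genes were called higher and 3 lower, beside 12.9% and 12.5% of all genes.

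Genes of other remodellers fell more often than they rose. Of 25 SWI/SNF genes, 14 fell (56%) and 6 rose (24%), and of 23 genes of other families 18 fell (78.3%) and 1 rose (4.35%), beside 33.2% lower and 33.5% higher over all genes. The SWI/SNF ATPase Smarca4 (Brg1) had 290.4 and 327 CPM in mutant add-back cells against 430.03, 404 and 402 CPM in wild type (log2 fold change -0.42 ± 0.06, adjusted p = 7.4e-06). Its alternative ATPase Smarca2 (Brm) went the other way, with 17.4 and 13.4 CPM against 5.44, 6.32 and 6.39 CPM (1.35 ± 0.12, adjusted p = 1.4e-08), and it was above ko replicates 3 to 5, by 0.82 on the log2 scale, but not above ko replicates 1 and 2, which had 35.3 and 37.7 CPM. The DNA-contacting subunit Arid1a was close to 2-fold lower (-1.02 on the log2 scale), as were Arid2 (-1.16), the nucleosome remodeller Ino80 (-1.06) and the NuRD ATPase Chd3 (-1.10). The major NuRD ATPase Chd4 had 575 and 581 CPM in mutant add-back cells against 1014, 961 and 962 CPM in wild type (-0.76 ± 0.06). Over all genes the fold change moved with the exonic length of the gene. The median log2 fold change against wild type was 0.21 in the quartile of genes with the shortest exonic length and -0.19 in the quartile with the longest; against the ko it was 0.157 and -0.144. The part of transcript length in the falls of remodeller genes was not tested.

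Ctcf and Rest encode the DNA-binding factors that the study mapped by ChIP-seq. Ctcf had 162 and 171 CPM in mutant add-back cells, 193, 197 and 176 CPM in the ko, 210.3, 211 and 217 CPM in the wild-type add-back and 251, 232 and 239 CPM in wild type. Both mutant add-back libraries were below every other library of the fit, while ko replicates 1 and 2 had 143 and 143 CPM. The log2 fold change against wild type was -0.53 ± 0.06 (adjusted p = 1.7e-07). Of 20 genes of CTCF, cohesin and their loaders, 12 fell (60%) and 1 rose (5%). The cohesin ring subunit Smc3 fell by 0.20, whereas Rad21 (-0.10, adjusted p = 0.14) and Stag2 (-0.12, adjusted p = 0.069) were not called. Ctcfl, the germline paralogue of Ctcf, had no count in either mutant add-back library against 1.31, 1.28 and 0.749 CPM in wild type, at least 13.01-fold lower by a floor of 3 counts over the group. Rest, the repressor of neuronal genes outside neurons, had 113 and 158 CPM in mutant add-back cells against 313, 277 and 259 CPM in wild type (-1.07 ± 0.15, adjusted p = 8.4e-05). Of 24 neuronal genes that REST is known to silence, 7 rose (29.2%) and 10 fell (41.7%), beside 33.5% and 33.2% of all genes.

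The genes with the largest falls separate into those that stayed low in the wild-type add-back and those that did not. The 3 Y-linked genes Ddx3y, Eif2s3y and Uty, and H19, form the first set. Ddx3y, an RNA helicase gene, had 0.229 and 0.396 CPM in mutant add-back cells, 0.393, 0.421 and 0.231 CPM in the ko, 0.191, 0.429 and 0.807 CPM in the wild-type add-back and 49.8, 50.9 and 47.8 CPM in wild type, so it was near 0 in all 3 lines that carry the knockout. Eif2s3y, a translation initiation factor gene, had 0.629 and 0.340 CPM against 69.1, 66.8 and 64.2 CPM in wild type (-7.09 ± 0.16, adjusted p = 1.2e-16), and the histone demethylase gene Uty had 0.0572 and 0.283 CPM against 27.8, 25.8 and 28.8 CPM. The imprinted non-coding RNA H19 had 2.63 and 3.40 CPM in the mutant add-back, 2.08, 2.16 and 3.47 CPM in the ko, 0.254, 0.0613 and 0.336 CPM in the wild-type add-back and 91.3, 101 and 104 CPM in wild type (log2 fold change against wild type -5.03 ± 0.14, adjusted p = 5.5e-15). H19 was higher in the mutant add-back than in the wild-type add-back (3.78 ± 0.41, adjusted p = 2.4e-07), both far below wild type. In ko replicates 1 and 2, outside the fit, H19 was at 18.99 and 21.4 CPM and Ddx3y at 1.42 and 1.67 CPM.

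On the Y chromosome 9 genes were tested. Uba1y, Eif2s3y, Uty and Ddx3y, which lie between bases 818612 and 1286628 of the Y (build GRCm38), all fell. Rbmy and 4 neighbouring predicted genes between bases 2830680 and 3410167 rose instead. Rbmy, a germ cell RNA-binding protein gene, had 4.34 and 4.70 CPM in mutant add-back cells, 1.12, 0.895 and 1.39 CPM in the ko, 0.127, 0.184 and 0.135 CPM in the wild-type add-back and 0.218, 0.304 and 0.346 CPM in wild type (3.94 ± 0.26, adjusted p = 2e-10). Its copies are near-identical, so counts may be shared among them. For Rbmy, ko replicates 1 and 2 had 5.86 and 6.25 CPM, above the mutant add-back. Of the predicted genes, Gm21677, Gm21693 and Gm21704 were under 1 CPM in every wild-type and ko library of the fit and passed the filter on low counts through the mutant add-back, so their rise is given as a description. The X chromosome also stood apart: 91 of its 519 tested genes were at least 2-fold lower than wild type (17.5%, against 7.84% over all genes) and 25 at least 2-fold higher (4.82%, against 9.38%). Against the wild-type add-back, 18.5% of X-linked genes were at least 2-fold lower, and against the ko 1.16%, beside 8.1% and 0.78% of all genes.

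**Figure D2:**
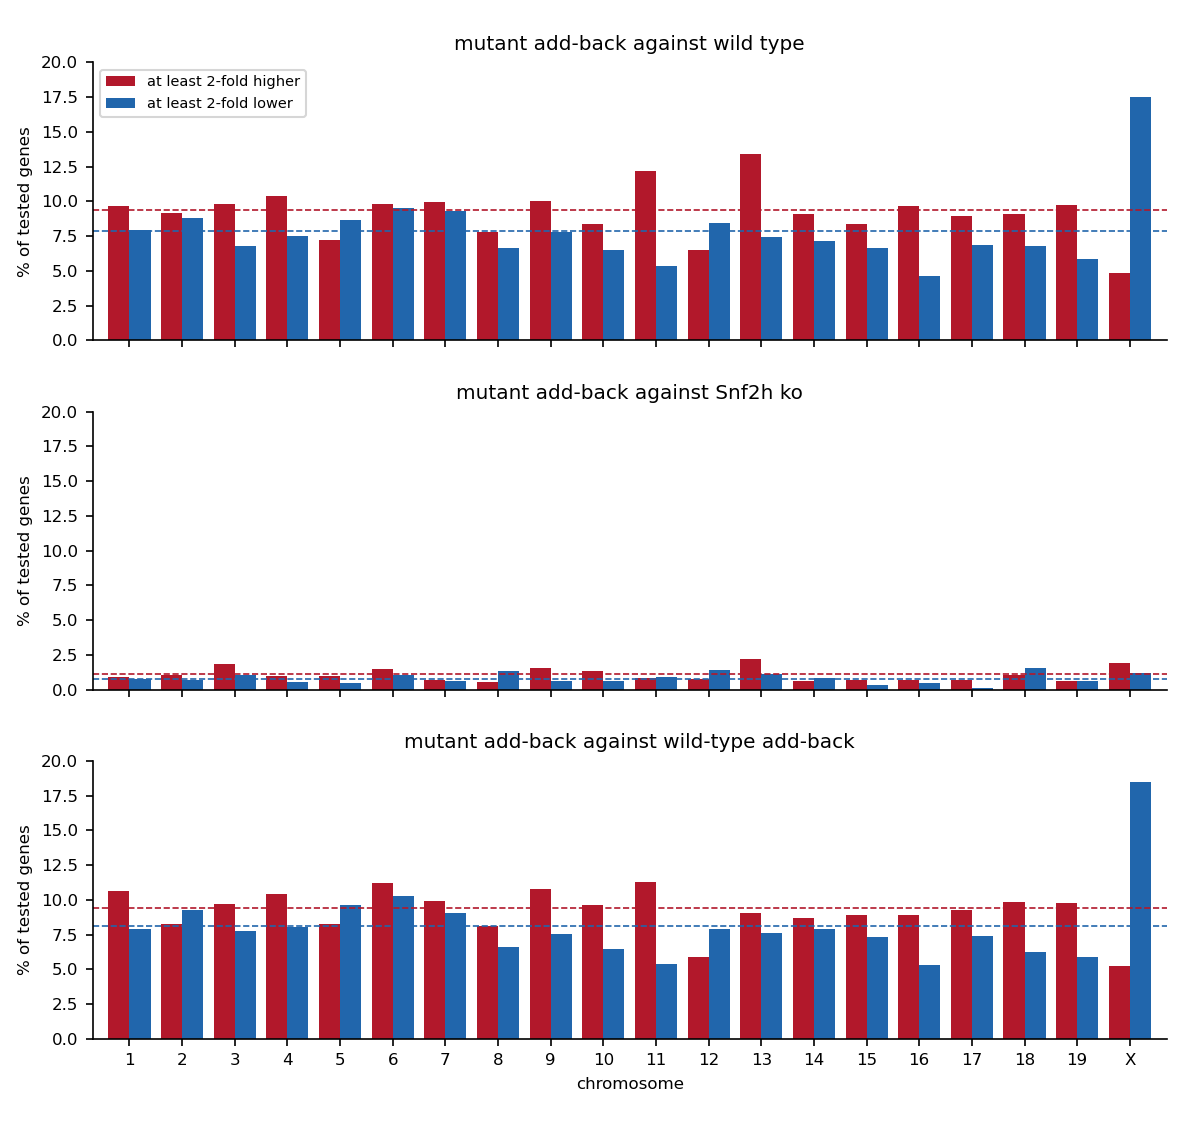
Bars give, for each chromosome except Y, the percentage of its tested genes that were at least 2-fold higher (red) or at least 2-fold lower (blue) in mutant add-back cells, with 1 panel for each comparison and dashed lines at the percentages over all genes. On the X chromosome the blue bar reaches 17.5% against wild type and 18.5% against the wild-type add-back; against the ko every bar is small.

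The second set of large falls was high again in the wild-type add-back. Prss41, a testis-type serine protease gene, had 0.114 and 0 CPM in mutant add-back cells, 0.0562, 0 and 0.116 CPM in the ko, 12.02, 11.1 and 9.22 CPM in the wild-type add-back and 9.03, 9.18 and 9.96 CPM in wild type. All mutant add-back and ko libraries were near 0, and the log2 fold change was -7.19 ± 0.38 against wild type (adjusted p = 9.4e-12) and -7.40 ± 0.37 against the wild-type add-back (adjusted p = 3.6e-12). Its promoter is shown because it is the largest fall of a gene that is again expressed with wild-type Snf2h. The sequence is the 250 bases before the first listed start of Prss41 on the reverse strand, chr17:23844157-23844406, from RefSeq on GRCm38.p6 (strain C57BL/6J, not the strain of these cells). The capitals mark a match to AGNGGGCGC, letters from the core of the CTCF motif, 48 bases before that start. The annotated gene reaches base 23844219, upstream of that start, so the marked match lies inside the gene's span.
Prss41: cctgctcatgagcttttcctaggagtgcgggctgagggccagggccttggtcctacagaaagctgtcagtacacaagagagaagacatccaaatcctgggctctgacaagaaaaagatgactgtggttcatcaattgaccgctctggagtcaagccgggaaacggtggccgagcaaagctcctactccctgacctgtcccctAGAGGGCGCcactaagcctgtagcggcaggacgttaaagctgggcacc
This short motif was searched on both strands after the sequence had been read, and 4.42% of the 11369 tested genes with a promoter entry hold it. Among genes at least 2-fold lower the share was 4.58%, and among those at least 2-fold higher 3.8%. A longer, looser form of the CTCF core was searched on both strands too and is not in this window, and the shares that hold it were 2.52% of all genes, 2.35% of the 2-fold lower and 2.14% of the 2-fold higher. The match is a description of 1 promoter.

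Magohb, a paralogue of the exon junction complex gene Magoh, behaved like Prss41, with 0.400 and 0.113 CPM in mutant add-back cells, 0.393, 0.316 and 0.405 CPM in the ko, 14.4, 16.3 and 12.7 CPM in the wild-type add-back and 12.8, 14.4 and 13.996 CPM in wild type (-5.71 ± 0.25 against wild type, adjusted p = 7.8e-13). The mutant add-back and ko libraries lay near 0, with no overlap with the other groups. Lef1, which carries Wnt signals to target genes as a partner of beta-catenin, had 0.286 and 0.340 CPM in mutant add-back cells, 0.281, 0.579 and 0.347 CPM in the ko, 15.1, 14.97 and 17.8 CPM in the wild-type add-back and 9.52, 8.51 and 6.74 CPM in wild type (-4.69 ± 0.29, adjusted p = 8.6e-11). Sohlh2, a germ cell transcription factor gene, was at 0.629 and 0.736 CPM against 25.02, 25.7 and 21.9 CPM in wild type, and was below ko replicates 3 to 5 (-1.16 on the log2 scale, adjusted p = 0.0077) but not below ko replicates 1 and 2, at 0.475 and 0.737 CPM. Acsf3, which activates malonate in mitochondria, showed 4 separate levels, with 0.400 and 0.227 CPM in the mutant add-back, 4.33, 2.79 and 3.53 CPM in the ko, 14.8, 15.8 and 15.1 CPM in the wild-type add-back and 18.9, 21.6 and 20.2 CPM in wild type. It fell by 5.98 on the log2 scale against wild type (adjusted p = 6.6e-14) and by 3.47 against the ko (adjusted p = 3.8e-07). In the ko libraries outside the fit (replicates 1 and 2) Acsf3 was at 1.31 and 1.40 CPM, between the mutant add-back and the other ko libraries. Mtus2 (-4.98), the carbohydrate kinase gene Fggy (-4.83), Rbm44 (-4.82), Cgrrf1 (-4.77) and Dtna (-4.60) complete the 15 largest falls with Tdrd12, described with the germline genes.

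The largest rises included secreted and cell surface proteins. The matrix glycoprotein gene Tnc had 10.7 and 18.5 CPM in mutant add-back cells, 15.2, 19.3 and 19.14 CPM in the ko, 0 in each wild-type add-back library and 0.653, 0.547 and 0.691 CPM in wild type (4.52 ± 0.33 against wild type, adjusted p = 2.8e-07). It was at least 228-fold higher than in the wild-type add-back, by a floor of 3 counts over that group, and did not differ from the ko by this test (log2 fold change -0.29, adjusted p = 0.27). The neighbouring Wnt ligand genes Wnt6 and Wnt10a both rose. Wnt6 had 38.4 and 33.4 CPM in mutant add-back cells, 23.4, 22.8 and 21.6 CPM in the ko, 1.21, 1.35 and 1.35 CPM in the wild-type add-back and 2.83, 2.80 and 3.23 CPM in wild type (3.60 ± 0.10, adjusted p = 3.1e-15), and the mutant add-back was above the ko by 0.67 on the log2 scale (adjusted p = 5.4e-06). Wnt10a had 5.83 and 5.21 CPM in mutant add-back cells against 0.326, 0.304 and 0.115 CPM in wild type (4.43 ± 0.29, adjusted p = 1.9e-10). Lox, whose product crosslinks collagen, had 5.26 and 8.89 CPM against 0.653, 0.425 and 0.346 CPM, and Cd44, a receptor for hyaluronan, 14.1 and 18.01 CPM against 1.90, 1.94 and 1.56 CPM.

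The other large rises were of varied function. Tnfaip2, a gene induced by tumour necrosis factor, had 14.1 and 15.9 CPM in mutant add-back cells, 19.4, 19.2 and 19.9 CPM in the ko and 0.816, 0.790 and 0.806 CPM in wild type (4.20 ± 0.15 against wild type, adjusted p = 3.5e-14). The beta-adrenergic receptor gene Adrb1 rose by 3.52, the TGF-beta family receptor gene Acvrl1 by 3.23, the stress-induced cytokine gene Gdf15 by 3.36 and the AP-1 family gene Jdp2 by 3.20 on the log2 scale. Wild-type replicates 1 to 5 had more Gdf15, at 1.81 to 2.35 CPM, and more Jdp2, at 5.24 to 8.02 CPM, than replicates 6 to 8, and still less than the mutant add-back. Mst1 (3.90), the Cdk5 activator gene Cdk5r2 (3.18), the cardiac myosin-binding protein gene Mybpc3 (3.11), the calcium-binding protein gene S100a1 (3.10) and Pdzd7 (3.03) complete the 15. All 30 of the largest rises and falls kept their direction and their call in each of the 420 values recomputed under other settings, with a lowest absolute log2 fold change of 2.02.

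**Figure D3:**
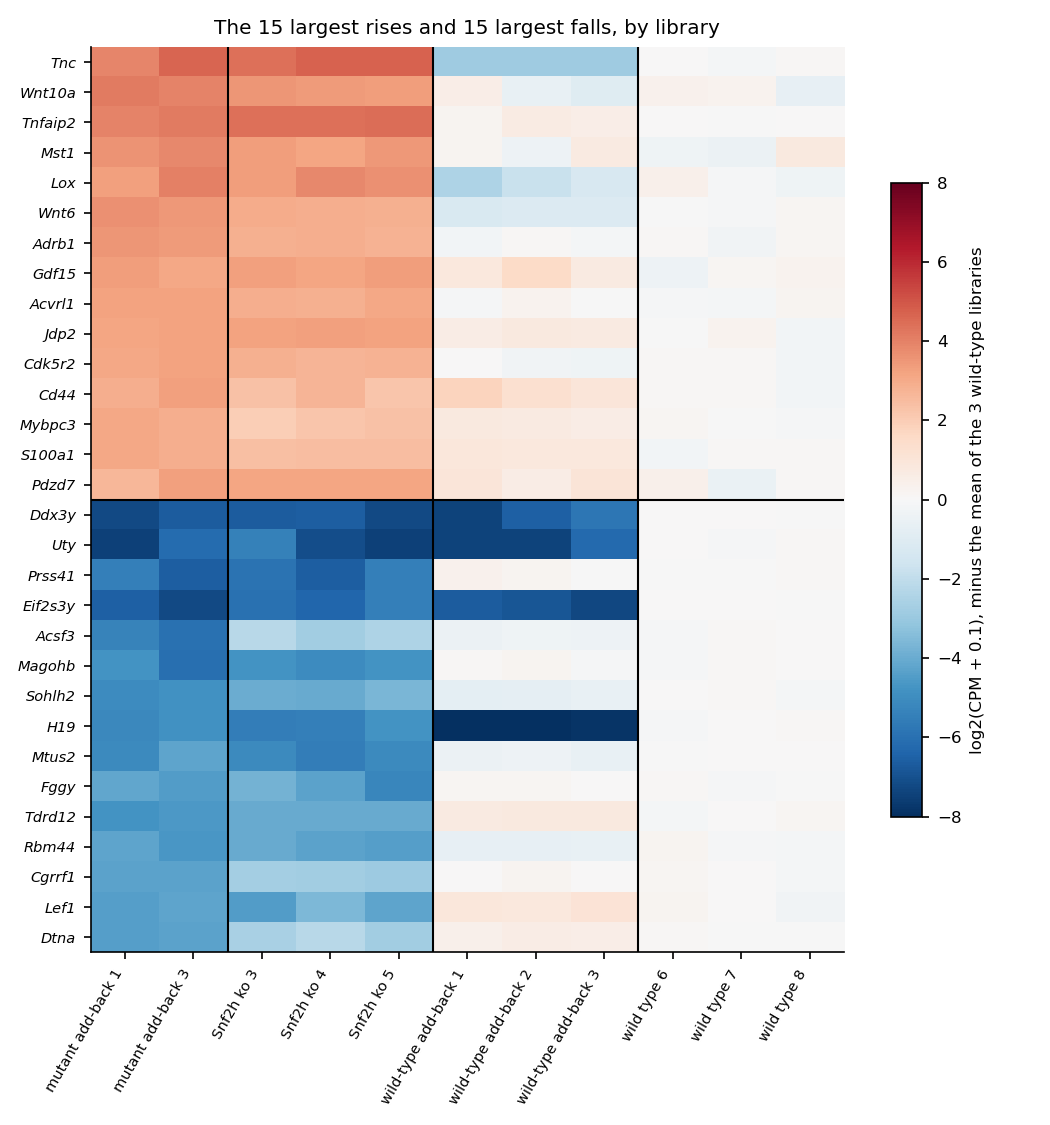
Rows are the 15 largest rises (above the line) and the 15 largest falls (below it), columns are the 11 libraries, and colour gives log2(CPM + 0.1) minus the mean of the 3 wild-type libraries. The ko columns look like the mutant add-back columns; in the wild-type add-back columns most rows are pale, but Ddx3y, Uty, Eif2s3y and H19 stay blue.

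The core pluripotency genes stayed on. Pou5f1 (Oct4) had 2092 and 1797 CPM in mutant add-back cells against 1649.7, 1750.5 and 1731 CPM in wild type (0.19 ± 0.06, adjusted p = 0.0092), and Sox2 was not called (0.11, adjusted p = 0.099). Of 27 naive and core pluripotency genes, 10 rose (37%) and 13 fell (48.1%), beside 33.5% and 33.2% of all genes, with a median of -0.16. Nanog was the clearest rise among the core factors, with 689.7 and 744 CPM in mutant add-back cells, 714, 749 and 726 CPM in the ko, 506, 511 and 517 CPM in the wild-type add-back and 478, 476 and 489 CPM in wild type (0.58 ± 0.05, adjusted p = 3.2e-09). The mutant add-back and ko libraries of the fit were high and did not overlap the other groups, but the ko replicates 1 and 2, outside the fit, had 447 and 466 CPM, below wild type. The naive factors Tbx3 (0.87) and Klf4 (0.51) and the AKT coactivator gene Tcl1 (1.19) rose as well, though wild-type replicates 1 to 5 reached 227 to 293 CPM for Klf4 and 66.2 to 81.1 CPM for Tcl1, which overlaps the mutant add-back. Klf2 went down, with 64.7 and 63.8 CPM in the mutant add-back, 63.2, 58.8 and 66.8 CPM in the ko, 182, 202 and 181 CPM in the wild-type add-back and 125, 125 and 128 CPM in wild type (-0.97 ± 0.06). Dppa2, a chromatin protein gene of early embryos, fell too, with 46.01 and 45.9 CPM against 102, 97.6 and 98.3 CPM, and 54.4 to 93.5 CPM in wild-type replicates 1 to 5.

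Genes of the formative and primed states, which ES cells switch on as they leave the naive state, were lower. Of 18 tested, 12 fell, 8 of them by at least 2-fold, and 0 rose, against 33.2% called lower over all genes, and the median was -0.65. The de novo DNA methyltransferase gene Dnmt3a had 70.98 and 67.2 CPM in mutant add-back cells, 89.8, 85.2 and 87.2 CPM in the ko, 133, 136 and 142 CPM in the wild-type add-back and 283, 269 and 271 CPM in wild type. In these libraries the mutant add-back was the lowest group and wild type the highest, without overlap (-1.99 ± 0.06 against wild type, adjusted p = 3.1e-15). Ko replicates 1 and 2 were lower still, at 55.4 and 58.99 CPM, and wild-type replicates 1 to 5, at 135 to 187 CPM, overlapped the wild-type add-back and gave a log2 ratio of -1.13. Otx2, a driver of the exit from the naive state, had 15.03 and 15.2 CPM in mutant add-back cells, 16.7, 16.4 and 15.4 CPM in the ko, 64.3, 63.7 and 67.5 CPM in the wild-type add-back and 41.6, 41.5 and 44.8 CPM in wild type (-1.49 ± 0.07, adjusted p = 4.5e-12). Grhl2, which opens epithelial enhancers in primed cells, had 14.2 and 13.9 CPM against 57.7, 53.96 and 52.9 CPM, and the zinc finger genes Zic2 and Zic5 fell by 2.38 and 2.00 on the log2 scale. Dnmt3l, the cofactor of Dnmt3a, had 234 and 211 CPM in mutant add-back cells, 92.5, 93.5 and 97.7 CPM in the ko, 245, 266 and 249.7 CPM in the wild-type add-back and 339, 362 and 355 CPM in wild type. It was lower than wild type (-0.66 ± 0.06) and higher than the ko (1.23 ± 0.06, adjusted p = 6.3e-11). Wild-type replicates 1 to 5 had 176 to 283 CPM, which spans the mutant add-back, so the fall holds for replicates 6 to 8 alone, and ko replicates 1 and 2 had 132 and 138 CPM. Among 17 DNA methylation genes, 11 fell (64.7%) and 1 rose (5.88%), with the methyl-CpG binding gene Mbd1 the lowest at 6.001 and 8.27 CPM against 44.8, 47.6 and 47.3 CPM in wild type (-2.70 ± 0.10, adjusted p = 1.1e-13). On 18-library scaling the list summed to 5472 and 5622 CPM in the mutant add-back and 6992 to 7093 CPM in wild-type replicates 6 to 8. In wild-type replicates 1 to 5 it summed to 5018 to 5839 CPM, which spans the mutant add-back.

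**Figure D4:**
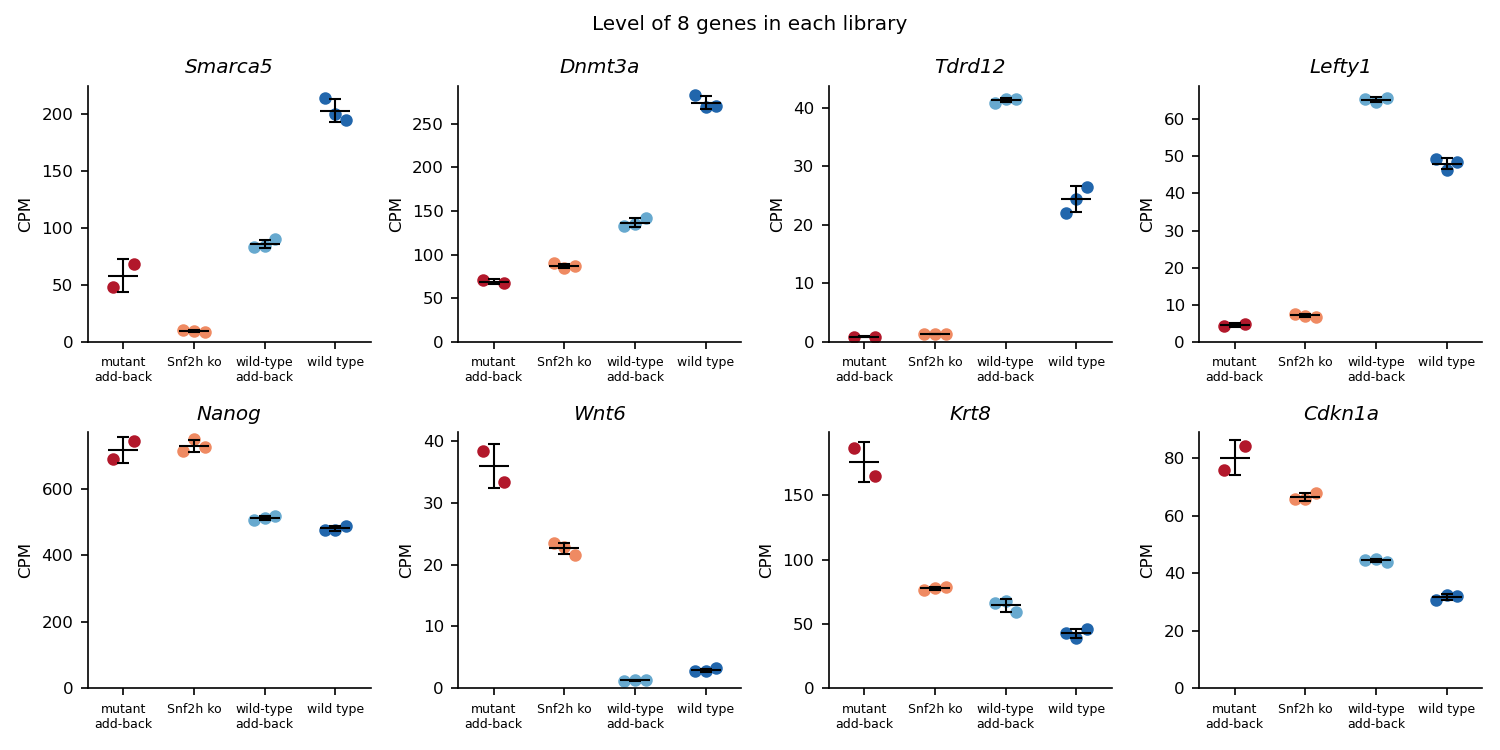
Points are the CPM of single libraries for 8 genes in mutant add-back, ko, wild-type add-back and wild-type cells, with black bars at the mean ± SD (n = 2 for the mutant add-back, n = 3 for each other group). Dnmt3a, Tdrd12 and Lefty1 are low in mutant add-back and ko libraries, Wnt6 is high in both, and Krt8 is highest in the mutant add-back.

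Signalling genes changed in both directions. Their lists are read against 33.5% higher and 33.2% lower over all genes. The Nodal antagonist Lefty1, itself a Nodal target, had 4.23 and 4.87 CPM in mutant add-back cells, 7.59, 6.95 and 6.76 CPM in the ko, 65.6, 64.6 and 65.7 CPM in the wild-type add-back and 49.3, 46.4 and 48.6 CPM in wild type (-3.40 ± 0.09, adjusted p = 1.3e-15). Its paralogue Lefty2 had 18.3 and 18.2 CPM against 53.1, 48.4 and 51.8 CPM. Of 27 Nodal and BMP genes, 14 rose (51.9%) and 8 fell (29.6%), and the BMP ligand gene Bmp7 was among the rises, with 15.4 and 16.4 CPM in mutant add-back cells against 3.54, 3.89 and 3.86 CPM in wild type (2.08 on the log2 scale). Wild-type replicates 1 to 5 had 9.69 to 20.2 CPM of Bmp7, which spans the mutant add-back. Id3, a standard BMP response gene, rose by 0.63. Of 38 Wnt pathway genes, 15 rose (39.5%) and 9 fell (23.7%). Of 11 genes named Wnt that were tested, a family chosen after its values were seen, 9 rose and 0 fell, with a median of 1.37. Among the rises, Wnt3 and Wnt10a were under 1 CPM in each wild-type library and passed the filter on low counts through other groups. The count is therefore a description. Of these 11, 6 were called higher than ko replicates 3 to 5, beside 12.9% of all genes. Wnt4, for example, had 10.001 and 8.10 CPM in mutant add-back cells, 4.72, 3.95 and 3.64 CPM in the ko and 2.07, 1.58 and 2.76 CPM in wild type (2.07 ± 0.19), and ko replicates 1 and 2 had 13.6 and 13.96 CPM. The secreted Wnt inhibitor gene Sfrp2 rose as well, with 33.5 and 39.4 CPM against 5.71, 6.26 and 6.11 CPM in wild type and 12.7 to 16.2 CPM in its replicates 1 to 5, whereas the receptor gene Fzd7 fell by 0.89. Axin2, a direct target of canonical Wnt signalling, was not called (0.08, adjusted p = 0.52). In the LIF and FGF list, 3 of 20 genes rose (15%) and 10 fell (50%), among them the receptor gene Fgfr2 (-1.40).

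Germline genes, many of which ES cells express at low or moderate levels, were mostly down. Of 45 tested, 31 fell (68.9%, beside 33.2% of all genes), 23 of them by at least 2-fold (51.1%, beside 7.84%), and 9 rose (20%, beside 33.5%), and the median was -1.01. Against the ko, 1 fell and 4 rose (2.22% and 8.89%, beside 12.5% and 12.9% of all genes), with 4 falls where either mutant add-back replicate was left out, and against the wild-type add-back, 27 fell and 8 rose (60% and 17.8%, beside 33.4% and 33.8%). Rnf17, a Tudor domain gene of spermatogenesis, had 18.3 and 17.2 CPM in mutant add-back cells, 17.03, 18.9 and 17.3 CPM in the ko, 142, 143 and 156 CPM in the wild-type add-back and 168, 160.2 and 165 CPM in wild type (-3.21 ± 0.07, adjusted p = 9.1e-17). Tex19.1, which restrains retrotransposons in germ cells and placenta, had 13.8 and 13.4 CPM in mutant add-back cells, 12.3, 12.2 and 11.5 CPM in the ko, 77.3, 79.8 and 76.3 CPM in the wild-type add-back and 107, 108 and 107 CPM in wild type (-2.98 ± 0.07, adjusted p = 9.1e-17). Rnf17 was 9.25-fold lower and Tex19.1 7.90-fold lower than in wild type, and in both genes the mutant add-back and ko libraries lay far below the 2 other groups.

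Several genes of the piRNA pathway, which makes small RNAs against transposons, were among the falls. Tdrd12 had 0.800 and 0.906 CPM in mutant add-back cells, 1.40, 1.37 and 1.39 CPM in the ko, 40.9, 41.5 and 41.5 CPM in the wild-type add-back and 22.1, 24.4 and 26.5 CPM in wild type (-4.82 ± 0.15 against wild type, adjusted p = 9.1e-15). The helicase gene Mov10l1 had 4.40 and 3.11 CPM against 33.3, 30.7 and 30.99 CPM, the Piwi gene Piwil2 38.2 and 41.7 CPM against 91.6, 89.999 and 86.9 CPM, and the RNA-binding protein gene Dazl 5.49 and 5.95 CPM against 23.9, 23.3 and 22.98 CPM in wild type. No mutant add-back library reached a wild-type library in any of the 4 genes. The list was not uniform: Mael, a piRNA factor gene, rose to 75.3 and 69.4 CPM against 24.6, 21.5 and 23.9 CPM in wild type (1.63 ± 0.07), and X-linked Tex13b to 16.6 and 16.9 CPM against 2.72, 3.28 and 3.28 CPM (2.44 ± 0.11). The germ cell helicase gene Ddx4 fell by 0.30, and wild-type replicates 1 to 5, at 30.7 to 42.7 CPM, overlapped its level in the mutant add-back.

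The promoters of Fkbp6 and Tdrd9 are shown as the largest falls among germline list genes that hold the E-box CACGTG in the 250 bases before their start. Holding an E-box was thus a condition of the choice. Both genes belong to the piRNA pathway, are nearly silent in mutant add-back cells and carry the E-box more than once. Fkbp6 had 0.0572 and 0.0566 CPM in mutant add-back cells against 1.80, 2.37 and 1.56 CPM in wild type (-4.89 ± 0.55, adjusted p = 3.3e-07). Tdrd9 had 0 and 0.113 CPM against 0.598, 1.22 and 0.749 CPM (-3.73 ± 0.71, adjusted p = 0.00015); at such levels each value rests on few reads. The E-box is known as the site that the Mga and Max repressors of germline genes bind. The sequences are the 250 bases before each start from RefSeq on GRCm38.p6, chr5:135350045-135350294 on the reverse strand for Fkbp6 and chr12:111971309-111971558 on the forward strand for Tdrd9, with E-boxes in capitals.
Fkbp6: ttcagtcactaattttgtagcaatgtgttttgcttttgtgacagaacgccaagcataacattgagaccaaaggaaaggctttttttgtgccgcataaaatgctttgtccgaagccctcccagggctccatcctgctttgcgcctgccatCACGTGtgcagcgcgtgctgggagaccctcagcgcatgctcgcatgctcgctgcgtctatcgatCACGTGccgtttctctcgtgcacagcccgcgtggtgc
Tdrd9: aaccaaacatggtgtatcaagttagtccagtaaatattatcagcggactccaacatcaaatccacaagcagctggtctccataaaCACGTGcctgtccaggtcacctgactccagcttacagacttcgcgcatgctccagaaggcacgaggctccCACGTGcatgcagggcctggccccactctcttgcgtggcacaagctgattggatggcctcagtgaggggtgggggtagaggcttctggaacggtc
The E-boxes begin 101 and 37 bases before the start of Fkbp6, and 165 and 95 bases before that of Tdrd9. CACGTG reads the same on both strands, and 8.48% of the 11369 tested genes with a promoter entry hold it in this window. Of 39 germline list genes with an entry, 16 hold it (41%), namely 12 of the 26 that fell (46.2%) and 4 of the 13 that did not (30.8%). Among all genes at least 2-fold lower the share was 8.34%, and among those at least 2-fold higher 5.56%. The 2-fold lower genes had a median of 8 CG dinucleotides in the window and the 2-fold higher genes 12, beside 16 over all genes.

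Genes of the 2-cell-like state, which marks a small share of ES cells in culture, were mostly low in the mutant add-back libraries. Of 21 such genes in the table, 8 passed the filter on low counts, and these 8 were called lower, 7 of them by at least 2-fold, with a median of -2.76. Of the 8, 7 reached a mean of 1 CPM in wild type and 1 did so in the mutant add-back, so most passed through the group where they are high and the count is a description. That 1 gene was not low and fell by 0.19 on the log2 scale. It held nearly all of the list's summed level in the mutant add-back, 263 and 277 CPM, beside 328 to 351 CPM for the list in wild type. Near-identical copies also share reads. Zscan4c had 0.800 and 1.08 CPM in mutant add-back cells, 2.14, 1.74 and 2.08 CPM in the ko, 1.02, 1.04 and 1.08 CPM in the wild-type add-back and 7.45, 8.63 and 9.22 CPM in wild type (-3.15 ± 0.19 against wild type, adjusted p = 6e-11). Against the wild-type add-back Zscan4c was not called (-0.15, adjusted p = 0.68), and of the 8 genes Eif1a alone was lower. In bulk RNA, fewer cells in a state and less RNA per cell cannot be told apart.

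Keratins and genes of the contractile cytoskeleton were high. Krt8 and its partner Krt18 form the intermediate filaments of simple epithelia. Krt8 had 187 and 165 CPM in mutant add-back cells, 76.3, 77.8 and 78.98 CPM in the ko, 66.6, 68.2 and 59.1 CPM in the wild-type add-back and 43.3, 39.2 and 45.8 CPM in wild type (2.04 ± 0.07 against wild type, adjusted p = 3.5e-14, and 1.18 ± 0.07 against the ko, adjusted p = 9.2e-10). Krt18 had 161 and 117 CPM in mutant add-back cells against 33.6, 36.5 and 35.1 CPM in wild type, and Krt19 45.4 and 32.6 CPM against 5.11, 6.02 and 6.39 CPM, with 10.9 to 27.5 CPM in wild-type replicates 1 to 5. Of 14 keratin genes tested, a family chosen after its values were seen, 9 rose and 1 fell, beside 33.5% and 33.2% of all genes. Among the rises, Krt6a and Krt23 were under 1 CPM in each wild-type library and passed the filter on low counts through other groups. The summed level of the keratins was 469 and 377 CPM in mutant add-back cells, 212 to 218 CPM in the ko and 117 to 124 CPM in wild type. The ko replicates 1 and 2, which are outside the fit, reached 433 and 461 CPM, as high as the mutant add-back, so the excess over the ko holds for ko replicates 3 to 5 alone. Vim, the filament of mesenchymal cells, rose to 251 and 231 CPM in mutant add-back cells, against 89.1, 89.999 and 93.5 CPM in wild type (1.41 ± 0.05). Smooth muscle actin Acta2 had 39.7 and 55.3 CPM in mutant add-back cells, 21.1, 23.6 and 24.98 CPM in the ko and 6.31, 6.62 and 6.22 CPM in wild type (2.89 ± 0.13), but wild-type replicates 1 to 5 reached 5.53 to 19.5 CPM, a log2 ratio of 2.16. Likewise the actin-binding protein gene Tagln had 54.4 and 51.8 CPM in mutant add-back cells against 8.60, 11.3 and 9.68 CPM in wild type, and 21.5 to 38.3 CPM in wild-type replicates 1 to 5. Of 21 contractile genes, 12 rose (57.1%) and 2 fell (9.52%) relative to wild type, beside 33.5% and 33.2% of all genes.

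Targets of YAP, the coactivator that responds to cell shape and stiffness, rose in part. Of 21 genes of the Hippo and YAP list, 11 rose (52.4%) and 5 fell (23.8%), beside 33.5% and 33.2% of all genes. Ctgf had 246 and 232 CPM in mutant add-back cells, 119, 130.1 and 129.5 CPM in the ko, 194, 195 and 189 CPM in the wild-type add-back and 77.03, 75.7 and 78.5 CPM in wild type (1.63 ± 0.05 against wild type). Ankrd1 had 27.2 and 29.7 CPM in mutant add-back cells, 10.9, 12.4 and 12.8 CPM in the ko, 24.03, 25.5 and 23.5 CPM in the wild-type add-back and 5.39, 6.38 and 7.26 CPM in wild type (2.167 ± 0.10). In ko replicates 1 and 2 Ctgf was at 583 and 615 CPM, far above the mutant add-back, and Ankrd1 at 29.5 and 32.96 CPM. Wild-type replicates 1 to 5 had 2.92 to 22.5 CPM of Ankrd1, all below the mutant add-back. The wild-type add-back was also well above wild type for both genes.

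Markers of embryonic fibroblasts were checked because the mutant add-back and ko lines had been thawed onto feeders. Of 25 feeder markers tested, 21 rose (84%) and 2 fell (8%) against wild type (median 1.64), beside 33.5% and 33.2% of all genes. Against the ko, 5 rose and 6 fell (20% and 24%, beside 12.9% and 12.5% of all genes). Of the 25, 16 reached a mean of 1 CPM in wild type and 21 in the mutant add-back. Some may therefore have passed the filter on low counts through groups where they are high. The summed level of the list was 1186 and 1474 CPM in mutant add-back cells, 1547 to 1573 CPM in the ko, 1433 to 1713 CPM in the wild-type add-back, which was grown on gelatin, and 1147 to 1192 CPM in wild type. In wild-type replicates 1 to 5 it was 1926 to 2673 CPM, above the mutant add-back, so the summed level is not higher than in all wild-type libraries. Most of the sum in wild-type libraries lies in Fn1, given below, so the sum says little about the other markers of the list. The fibroblast collagen gene Col1a1 had 9.77 and 8.78 CPM in mutant add-back cells, 17.2, 19.7 and 18.7 CPM in the ko, 1.97, 2.02 and 1.82 CPM in the wild-type add-back and 2.28, 3.71 and 3.74 CPM in wild type (1.52 ± 0.15 against wild type), and it was lower than in the ko (-1.001 on the log2 scale). Col3a1 stayed under 1 CPM in mutant add-back cells, with 0.514 and 0.340 CPM. Of the list members that did not pass the filter on low counts, Lum and Fap had no count in any mutant add-back or wild-type library of the fit. Dcn had at most 3 counts in a mutant add-back library and 1 in a wild-type library of the fit, and Twist2 at most 10 and 0. Fibronectin, Fn1, which both ES cells and fibroblasts make, was lower at 474 and 715 CPM against 907, 856 and 869 CPM in wild type, and its level was 1577 to 2271 CPM in wild-type replicates 1 to 5. The part of feeder RNA in the rises of matrix and contractile genes was not tested beyond these values.

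Endoderm genes gave the clearest contrast between references. Against wild type, 8 of 21 rose (38.1%) and 7 fell (33.3%), beside 33.5% and 33.2% of all genes, with a median of -0.02. Against the ko, by contrast, 17 rose and 1 fell, beside 12.9% and 12.5% of all genes, with a median of 0.73. Against the wild-type add-back 19 rose and 0 fell, beside 33.8% and 33.4% of all genes, with a median of 0.77. Gata6, a driver of primitive endoderm, had 33.5 and 33.02 CPM in mutant add-back cells, 14.9, 13.9 and 12.1 CPM in the ko, 15.5, 16.7 and 16.1 CPM in the wild-type add-back and 33.3, 33.9 and 34.96 CPM in wild type. The mutant add-back lay within the wild-type range or just below it (-0.03, adjusted p = 0.69) and above the ko (1.29 ± 0.08, adjusted p = 2.2e-09). Gata4 had 104 and 110.3 CPM in mutant add-back cells, 61.6, 63.2 and 59.1 CPM in the ko, 67.5, 62.7 and 68.1 CPM in the wild-type add-back and 107, 111 and 108 CPM in wild type (0.81 against the ko, adjusted p = 8.5e-09). Sox17 followed, with 22.3 and 25.4 CPM in mutant add-back cells, 11.1, 10.5 and 11.6 CPM in the ko and 21.1, 21.9 and 20.4 CPM in wild type. The libraries outside the fit show how far these markers vary within a genotype. Gata6 was at 50.96 and 52.1 CPM in ko replicates 1 and 2 and at 11.2 to 15.4 CPM in wild-type replicates 1 to 5, on 18-library scaling. The summed endoderm list reached 18504 and 19818 CPM in those ko libraries, against 8710.5 and 9455 CPM in the mutant add-back and 5996 to 6202 CPM in ko replicates 3 to 5. With 1 mean per genotype over all 18 libraries, 0 of the 21 endoderm genes were called higher than the ko and their median was -0.06. Dab2, an endocytic adaptor gene of visceral endoderm, was lower than wild type, with 99.96 and 122 CPM against 234, 238 and 241 CPM (-1.10 ± 0.07), but not than wild-type replicates 1 to 5, which had 40.95 to 93.5 CPM.

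Other lineage lists are read against 33.5% higher and 33.2% lower over all genes. Of 18 trophectoderm genes 10 rose (55.6%) and 6 fell (33.3%). Of 16 streak and mesoderm genes 5 rose (31.2%) and 1 fell (6.25%), and of 11 neuroectoderm genes 5 rose (45.5%) and 3 fell (27.3%), so several of these shares lie near those of all genes. Of the Hox genes 13 of 39 were expressed enough to test, and 10 of them rose and 0 fell (median 1.5), with 12 of the 13 above the wild-type add-back. Hoxb9 had 4.86 and 3.96 CPM in mutant add-back cells against 0.925, 0.912 and 1.15 CPM in wild type (2.14 ± 0.21). The summed Hox level was 29.4 and 30.7 CPM in mutant add-back cells and 10.2 to 11.8 CPM in wild type on 18-library scaling, so these remained low-level transcripts. The other Hox genes did not pass the filter on low counts, and a gene silent in wild type passes it only where another group is high, so these counts are a description. Of 31 Polycomb genes, 14 rose (45.2%) and 11 fell (35.5%).

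Stress and growth genes differed as well. Of 24 p53 target genes, 17 rose (70.8%) and 5 fell (20.8%), with a median of 0.61, beside 33.5% and 33.2% of all genes. Of these 24, 9 were called higher than ko replicates 3 to 5, beside 12.9% of all genes. The cell cycle inhibitor gene Cdkn1a (p21) had 75.95 and 84.4 CPM in mutant add-back cells, 65.7, 65.7 and 68.05 CPM in the ko, 44.6, 44.8 and 43.99 CPM in the wild-type add-back and 30.6, 32.5 and 32.3 CPM in wild type (1.34 ± 0.06, adjusted p = 1.2e-12). Ko replicates 1 and 2 had more Cdkn1a, 125 and 130.1 CPM, and wild-type replicates 1 to 5 had 45.8 to 67.7 CPM, a log2 ratio of 0.58. Btg2, an antiproliferative p53 target, had 157 and 147 CPM against 42.7, 45.2 and 47.6 CPM, while Trp53 itself was lower, with 427 and 426 CPM against 514, 537 and 522 CPM (-0.30 ± 0.05), though wild-type replicates 1 to 5, at 411 to 688 CPM, overlap it. Of 22 genes of the unfolded protein and integrated stress responses, 17 rose (77.3%) and 0 fell, among them the transcription factor gene Atf4 at 463 and 383 CPM against 252, 266 and 266 CPM (0.70 ± 0.06). Ddit4, an inhibitor of mTOR signalling, had 73.2 and 73.5 CPM in mutant add-back cells against 21.1, 20.2 and 18.5 CPM in wild-type replicates 6 to 8, but 47.2 to 157 CPM in wild-type replicates 1 to 5, so its rise holds for replicates 6 to 8 alone. The growth regulator Myc had 56.2 and 63.7 CPM in mutant add-back cells, 55.96, 53.7 and 50.01 CPM in the ko, 100.3, 99.8 and 99.9 CPM in the wild-type add-back and 169, 169 and 168 CPM in wild type (-1.49 ± 0.06, adjusted p = 3.7e-13), and 60.4 to 109 CPM in wild-type replicates 1 to 5, which overlaps the mutant add-back. Cyclin D1, Ccnd1, was down likewise, with 84.8 and 93.05 CPM against 271, 269.6 and 259 CPM (-1.58 ± 0.06), though the cell cycle list as a whole had 8 rises (26.7%) and 14 falls (46.7%) among 30 genes.

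Metabolic, interferon and imprinted genes moved both ways, and their shares stand beside 33.5% higher and 33.2% lower over all genes. Of 24 cholesterol synthesis genes, 16 rose (66.7%) and 1 fell (4.17%) with a median of 0.28. Their summed level was 2576 and 2662 CPM in mutant add-back cells and 2167 to 2238 CPM in wild type, but 2550 to 2876 CPM in wild-type replicates 1 to 5, so the excess is over replicates 6 to 8. Of 26 glycolysis and hypoxia genes 10 rose (38.5%) and 8 fell (30.8%). The platelet-type phosphofructokinase gene Pfkp rose to 406 and 408 CPM in mutant add-back cells, against 153, 151 and 154 CPM in wild type (1.42 ± 0.05), with 208 to 491 CPM in wild-type replicates 1 to 5, which spans the mutant add-back. Of 21 interferon-stimulated genes, 11 rose (52.4%) and 6 fell (28.6%), with Xaf1 at 37.4 and 37.7 CPM against 10.5, 10.03 and 12.2 CPM (1.78 ± 0.09) and the cytosolic RNA sensor gene Ddx58 lower (-0.93). Ddx58 had 21.9 to 33.9 CPM in wild-type replicates 1 to 5 and 26.4 and 28.5 CPM in the mutant add-back, which overlap. On 18-library scaling the interferon list summed to 481 and 487 CPM in the mutant add-back and 350 to 376 CPM in wild-type replicates 6 to 8. In wild-type replicates 1 to 5 it summed to 374 to 483 CPM, which overlaps the mutant add-back. Of 50 ribosomal protein genes, 34 rose (68%) and 2 fell (4%) with a median of 0.28; these have short transcripts, and with all 18 libraries and 1 mean per genotype 11 rose and 0 fell. Of 44 imprinted genes, 16 rose (36.4%) and 18 fell (40.9%). Grb10, which restrains growth factor receptors, rose to 589 and 638 CPM in mutant add-back cells, with 864, 893 and 858 CPM in the ko and 284, 269 and 264 CPM in wild type.

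Where the mutant add-back differed from the ko, the gap was mostly small: 1.86% of genes were called and at least 2-fold apart, beside 17.2% against wild type. Smarca5 and Smarca5-ps aside, the largest rises were of Sprr2a1, a gene of the cornified envelope, with 8.06 and 6.40 CPM in mutant add-back cells, 1.18, 1.58 and 1.45 CPM in the ko and 1.69, 1.22 and 1.61 CPM in wild type (2.36 ± 0.18 against the ko, adjusted p = 3e-08), and of Glipr1, with 35.2 and 35.2 CPM in mutant add-back cells, 9.61, 10.2 and 9.94 CPM in the ko and 6.91, 6.56 and 6.57 CPM in wild type (1.83 ± 0.08, adjusted p = 6.3e-11). In ko replicates 1 and 2 Sprr2a1 was at 11.3 and 13.3 CPM and Glipr1 at 40.2 and 47.003 CPM, both above the mutant add-back. The largest falls were of Usp26 (-2.10), Ttyh3 (-1.69) and the immediate early gene Fos (-1.52). For Fos, ko replicates 1 and 2 had 5.62 and 5.66 CPM, below the mutant add-back at 6.40 and 6.23 CPM, so its fall holds against ko replicates 3 to 5 alone. Ttyh3, a chloride channel family gene, had 6.69 and 6.85 CPM in mutant add-back cells, 23.1, 21.02 and 21.6 CPM in the ko, 16.3, 16.5 and 18.2 CPM in the wild-type add-back and 18.8, 16.6 and 17.5 CPM in wild type. It was 18.8 and 20.4 CPM in ko replicates 1 and 2, so all other libraries of the series were above both mutant add-back libraries. Prdm1, a repressor needed for germ cell fate, had 2.51 and 2.61 CPM in mutant add-back cells, 5.51, 6.43 and 6.48 CPM in the ko, 18.8, 18.03 and 20.8 CPM in the wild-type add-back and 11.2, 9.30 and 10.4 CPM in wild type (-1.26 ± 0.16 against the ko, adjusted p = 1.8e-05). The mutant add-back was the lowest of the 4 groups, and ko replicates 1 and 2 had 3.996 and 4.73 CPM. With all 18 libraries and 1 mean per genotype, 17 genes were higher than the ko and 31 lower.

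Set against the wild-type add-back, the largest rises included Tnc, the imprinted non-coding RNA Peg13, Lox, Wnt10a and Bgn. Peg13 was at 4.97 and 5.15 CPM in mutant add-back cells, 5.17, 4.63 and 6.19 CPM in the ko, 0 in each wild-type add-back library and 5.77, 4.31 and 5.07 CPM in wild type, so here the wild-type add-back is the line that stands apart. The largest falls were of Prss41, Magohb, Lef1, Tdrd12 and Acsf3, given above, and of Enpp2, which makes the lipid signal lysophosphatidic acid, with 0.171 and 0.170 CPM in mutant add-back cells against 6.55, 6.75 and 7.80 CPM in the wild-type add-back (-5.30 ± 0.31, adjusted p = 3.2e-11).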

How the data were processed

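RNA was purified with RNeasy and made into stranded polyA libraries, per the labels' protocols. Reads were converted with bcl2fastq 2.17 and aligned with STAR to mm10 (GRCm38), per the submitters' processing notes. The version of STAR, the read counter and the strandedness option were not given in the sources used here. The authors deposited 1 table of raw counts per gene and library, keyed by Entrez gene identifiers and with no separate normalization, and 14472 of the 14488 genes tested matched RefSeq on GRCm38.p6, from which positions and promoters were read. Genes that overlap or share sequence may have split counts.

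Counts were analysed in R 4.3.3 with edgeR 4.0.16: filterByExpr with a count minimum of 10, TMM scaling, robust glmQLFit and two-sided glmQLFTest, with Benjamini-Hochberg adjustment. The 11 libraries with totals under 20 M counts entered 1 fit with 1 mean per group, and the common biological coefficient of variation was 0.0523. The 7 other libraries entered alternatives only. Contrasts were set with limma 3.58.1. Alternatives used DESeq2 1.42.0, library size scaling, other filters, glmTreat against a 1.2-fold change, other sets of libraries, a replicate block and each replicate left out. The scripts were tested on simulated counts.

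Genes were named by rule: Smarca5 and Smarca1, the 15 largest rises and falls against wild type and the 6 largest against each other group among called genes with at least 5 CPM and non-overlapping libraries, up to 5 members of each list by adjusted p, and list members whose role called for them. Some genes that the rule selects are not reported here. Lists are described by counts and medians, with no set test. The libraries, genes and lists were chosen with earlier results of these data known.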

Additional observations from a re-analysis of the deposited data

How the results depend on the processing

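Against wild type the counts of called genes stayed within 1.5 times under every alternative run except the number lower with glmTreat against 1.2-fold, 3078. Against the wild-type add-back, glmTreat gave 3085 genes lower, and all 18 libraries with 1 mean per genotype gave 2742 higher and 2765 lower. Counts against the ko depended most on the settings. Genes higher numbered 395 with glmTreat, 1080 with only the 2 groups compared, 506 with all 18 libraries and the earlier sets as own groups, and 17 with 1 mean per genotype. Genes lower numbered 267, 1075, 596 and 31 under the same settings in that order. At least 2-fold higher were 9 with 1 mean per genotype, and at least 2-fold lower 75 with DESeq2, 63 with glmTreat, 68 with own groups and 9 with 1 mean per genotype. The causes were not tested.

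Leaving out 1 library at a time gave 4519 to 4893 genes higher and 4416 to 4789 lower than wild type, with 1326 to 1393 and 1043 to 1271 at least 2-fold. Against the wild-type add-back it gave 4537 to 4965 higher and 4471 to 4806 lower, with 1346 to 1400 and 1087 to 1350 at least 2-fold. Against the ko it gave 960 to 3033 higher and 1025 to 2844 lower, with 128 to 189 and 78 to 204 at least 2-fold. The lowest pair came without mutant add-back replicate 1 (960 and 1025) and the highest without replicate 3 (3033 and 2844), and 1036 were higher without ko replicate 3 and 1223 without ko replicate 4. Dropping either mutant library leaves 1, which is then assumed to vary like the other groups.

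With all 18 libraries and 1 mean per genotype these log2 values turned sign: against wild type Gbx2 (0.26), Runx1 (0.30), Ddit4 (-0.12) and the imprinted list median (0.044), and against the ko Nrcam (-0.37), Gata4 (-0.064), Sox17 (-0.011), Foxa2 (-0.090), Lama1 (-0.50), Ctgf (-0.39), the endoderm list median (-0.064) and the formative and primed list median (0.11). The endothelial and blood list median was between -0.016 and 0.35 with 1 library left out, the lowest without mutant add-back replicate 3. Of the values of named genes, 3284 kept direction and call, 63 lost the call and 9 turned sign.

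A replicate block could be fitted for the add-back lines only, and gave 4701 genes higher and 4526 lower than the wild-type add-back, with 1333 and 1157 at least 2-fold. Same-numbered libraries correlated at 0.0871 and 0.21 in their deviations, over 2 pairs. With 2 mutant add-back libraries their deviations mirror each other, so the 2 values are not independent and cannot settle whether the libraries were paired. The numbers were not taken as pairing in the main fit. Depth limits genes under about 1 CPM, where a value rests on few reads.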

Other observations

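Replication-dependent histone genes, a family chosen after its values were seen, were higher in mutant add-back cells. Of 52 tested, 38 rose, 35 of them by at least 2-fold, and 0 fell, with a median of 1.26. Several members, such as Hist1h4m at 0.0544, 0.122 and 0.173 CPM in wild type, passed the filter on low counts only through other groups. Such members could hardly fall, so the count is a description. Over all genes 33.5% rose, and 9.38% rose by at least 2-fold. Their summed level was 82.1 and 101 CPM in mutant add-back libraries, 69.5 to 74.5 CPM in the ko, 52.9 to 65.6 CPM in the wild-type add-back and 32.2 to 37.4 CPM in wild type. These transcripts mostly lack a polyA tail, so in polyA libraries a small share of them is seen, and wild-type replicates 1 to 5 reached 55.3 CPM on 18-library scaling. Against the ko 4 of the 52 rose, beside 12.9% of all genes.

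Protocadherin genes, whose clusters depend on CTCF-bound promoters, had 22 rises (61.1%, beside 33.5% of all genes) and 0 falls among 36 tested. Their median log2 fold change was 0.40 and the largest 0.53, and 0 were called with all 18 libraries and 1 mean per genotype. On 18-library scaling their summed level was 1552 and 1707 CPM in the mutant add-back. It was 1210 to 1246 CPM in wild-type replicates 6 to 8, but 1470 to 1756 CPM in replicates 1 to 5, which spans the mutant add-back. The first exons differ and the last exons are shared within a cluster, so counts may be shared. The 22 rises therefore cannot be read as 22 separate results.

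Lars2 and Mir6236 differed between the mutant add-back libraries, with 383 and 963 CPM for Lars2 and 115 and 350 CPM for Mir6236; both ranges overlap those of other groups in the fit.

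Chromosome 8, which holds Smarca5, had 20.8% of 754 tested genes lower than the ko and 7.03% higher, beside 12.5% and 12.9% over all genes, with a median log2 fold change of -0.07.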
